A study of Homo sapiens with 12 samples.

Results

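MYC, MYCN and the MAX network were measured by RNA-seq in 2 human rhabdomyosarcoma (RMS) cell lines, with and without stable knockdown of the histone demethylase KDM3A. The 9 genes of the network were MYC and MYCN, their partner MAX, the antagonists MXD1, MXI1, MXD3 and MXD4, and the large MAX-binding repressors MNT and MGA. They were taken by gene name from the 65975 genes of the table as a gene family, and the rule used no measured value, although the family was picked with earlier results of these data known. All 9 passed the filter on low values in every comparison.

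MYC-type proteins bind DNA only as heterodimers with MAX, at the E-box sequence, where they recruit histone acetyltransferases and elongation factors and raise transcription of genes for ribosome production, nucleotide synthesis and cell growth. MXD1, MXI1, MXD3, MXD4, MNT and MGA compete for the same MAX partner and the same sites, and bring in SIN3 and histone deacetylases or, in the case of MGA, the Polycomb-type complex PRC1.6. In RMS, MYCN is known as a gene that is high in fusion-positive tumors, where the PAX3-FOXO1 fusion protein activates it, while fusion-negative tumors more often carry high MYC.

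RD is a fusion-negative RMS (FN-RMS) line and Rh30 a fusion-positive RMS (FP-RMS) line. The 12 libraries formed 4 groups of 3: RD Scramble and RD KDM3A-sh2, grown in DMEM, and Rh30 Scramble and Rh30 KDM3A-sh2, grown in RPMI. All cells had received an shRNA lentivirus and puromycin at 1 ug/ml, the Scramble cells with a non-targeting shRNA and the KDM3A-sh2 cells with an shRNA against KDM3A. Each tumor subtype was represented by 1 line and the knockdown by 1 shRNA, so line, subtype and culture medium cannot be told apart, nor the loss of KDM3A from any other action of that shRNA. Whether a group's 3 libraries were grown as separate cultures is not given, and the p-values measure the spread between libraries. The column labels of all 3 Rh30 Scramble libraries end in the same number, while those within each other group end in different numbers. What that number stands for is not given. In such bulk libraries fewer cells carrying a transcript and less transcript per cell cannot be told apart.

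The sequence that MYC and MAX bind, CACGTG, and short words bound by E2F factors (TTTCCCGC, TTTGGCGC and TTTCGCGC) were searched on both strands of the 300 bases from 250 before to 50 after each start in the RefSeq promoter table (build GRCh38.p14), which held 8 of the 9 network genes. The E-box was in 2 of these 8 promoters, MXD4 and MNT, and in 7.4% of all 27305 promoters. An E2F word was in 1 of the 8, MYCN, as 2 overlapping matches on opposite strands, and in 2.8% of all promoters. The promoters of MAX, MXD1, MXD3, MXI1 and MGA held none of these words, nor the FOXO word GTAAACA, which was in 3.4% of all promoters. The matched stretches of the network genes are printed here beside 2 MYC targets, FBL and HSPE1, and the E2F target TYMS, whose values follow. They run 5′ to 3′ on the strand of the gene, with the matched word in capitals, and are descriptions of the letters only.
MXD4, chr4:2262332-2262357, minus strand, word at -238 from the start: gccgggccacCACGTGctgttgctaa
MNT, chr17:2401238-2401263, minus strand, word at -193: ctgcccgggcCACGTGtgcgcgcgcc
FBL, chr19:39846358-39846383, minus strand, word at 7: cgctcttttcCACGTGcgaaagcccc
HSPE1, chr2:197500347-197500372, plus strand, word at -22: gtgattttttCACGTGtcgccagggc
MYCN, chr2:15940364-15940391, plus strand, word at -176: gcaagtggctTTTGGCGCgaaagccttg
TYMS, chr18:657604-657631, plus strand, word at -39: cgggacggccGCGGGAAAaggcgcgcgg

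Levels are given as FPKM, in which the fragments of a gene are divided by its exon length and by the mapped reads of the library, so that levels of different genes can be compared. Differences are log2 fold changes of (FPKM + 1), tested with limma, with p-values adjusted by Benjamini-Hochberg over all genes tested and a threshold of 0.05. The added 1 makes the change of a low gene, such as MYCN in RD, look smaller than it is. The smallest two-sided p that an exact permutation test of 3 against 3 libraries can give is 0.1, and every member whose groups did not overlap was at that value.

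KDM3A was lower in all KDM3A-sh2 libraries of both lines. In RD it fell from 33.5 ± 2.50 to 12.2 ± 1.09 FPKM (mean ± SD, n = 3 each), a log2 change of -1.39 (limma adjusted p = 5.00e-05), and in Rh30 from 29.7 ± 2.14 to 14.1 ± 1.15 FPKM, a log2 change of -1.02 (limma adjusted p = 0.000348). The libraries held between 17473 and 17983 genes at 1 FPKM or more, with relative sequencing depths between 0.859 and 1.21 of their median. Libraries of 1 group correlated with r of 0.993 to 0.994 on the log2 scale over all 65975 genes of the table. Of these genes, between 27098 and 28308 were above 0 in a library, and the shared zeros raise r. All 5 muscle lineage markers were detected in both lines. The PAX3-FOXO1 targets NOS1, at 50.4 ± 2.66 FPKM, and TFAP2B, at 13.9 ± 0.780 FPKM, marked Rh30 Scramble and were under 0.1 FPKM on average in RD Scramble. Of the markers of other cell types, PTPRC, PECAM1, KRT5 and ALB were under 1 FPKM in every group mean, while KRT18 reached 43.7 ± 3.10 FPKM in RD Scramble and EPCAM 6.03 ± 1.37 FPKM in Rh30 KDM3A-sh2.

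The comparison of the Scramble libraries of the 2 lines asked how the network stood before any knockdown. MYC was the leading MYC-type gene in RD and MYCN in Rh30. MYC was at 98.8, 99.5 and 98.3 FPKM in the RD Scramble libraries and at 55.9, 57.3 and 53.2 FPKM in Rh30 Scramble. MYCN was at 2.07, 2.23 and 2.09 FPKM in RD Scramble and at 91.6, 92.1 and 88.3 FPKM in Rh30 Scramble. Neither gene's groups overlapped, and the 2 genes lay in opposite order in the 2 lines. Mean MYCN was 42.6 times as high in Rh30 as in RD, and its difference on the log2(FPKM + 1) scale was 4.87 ± 0.0545 (SE; limma adjusted p = 6.00e-09). MYC was lower in Rh30 by a log2 difference of -0.82 ± 0.0413 (limma adjusted p = 2.23e-06).

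Of the 9 genes, 4 were higher and 4 lower in Rh30, beside 74.5% of the 18357 genes tested that differed between the lines (35.0% higher and 39.6% lower), and 8 of 9 did not overlap, beside 77.5% of all genes tested, so a called difference was the usual outcome. Rescaling to the same sum moved the median of all genes by -0.10 in this comparison and changed the call or direction of none of these 8. The higher group held MYCN, MXD3, MAX and MGA. MXD3, the antagonist known to be made in S phase of dividing cells, was at 9.43, 7.72 and 7.75 FPKM in RD Scramble and at 53.0, 50.4 and 38.0 FPKM in Rh30 Scramble, a log2 difference of 2.36 ± 0.138 (limma adjusted p = 4.79e-06). The third Rh30 library was well under the other 2 but still far above every RD library. RAB24 and PRELID1, whose genomic spans overlap that of MXD3, were also higher in Rh30 Scramble. Their log2 differences were 1.36 (limma adjusted p = 1.52e-06) and 1.88 (limma adjusted p = 3.92e-08). How many reads these genes and MXD3 take from each other is uncertain. MAX, the obligate partner, differed least among the 4, at 45.0, 46.5 and 48.2 FPKM in RD Scramble and 53.6, 60.7 and 54.9 FPKM in Rh30 Scramble (log2 difference 0.27 ± 0.0589, limma adjusted p = 0.00466). MGA was at 15.0, 12.5 and 12.8 FPKM in RD Scramble against 19.9, 18.6 and 20.3 FPKM in Rh30 Scramble (log2 difference 0.52 ± 0.0808, limma adjusted p = 0.000884). For both, every Rh30 library was above every RD library.

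MYC, MXD4, MXD1 and MXI1 were lower in Rh30. MXD4 was at 21.3, 21.0 and 23.8 FPKM in RD Scramble and 11.2, 9.80 and 11.0 FPKM in Rh30 Scramble (log2 difference -0.98 ± 0.0781, limma adjusted p = 2.41e-05). MXD1, an antagonist that rises in many cells as they differentiate, was at 8.36, 7.86 and 7.80 FPKM in RD Scramble and 4.66, 4.81 and 4.56 FPKM in Rh30 Scramble (log2 difference -0.67 ± 0.0710, limma adjusted p = 0.000113). SNRNP27, whose span overlaps that of MXD1 on the same strand, averaged 64.7 FPKM over the 12 libraries. It was higher in Rh30 Scramble (log2 difference 0.26, limma adjusted p = 0.0101), and how many reads MXD1 and SNRNP27 take from each other is uncertain. MXI1 was at 15.8, 13.9 and 14.9 FPKM in RD Scramble and 9.93, 10.7 and 11.0 FPKM in Rh30 Scramble (log2 difference -0.45 ± 0.0731, limma adjusted p = 0.00101). None of these 3 antagonists overlapped between the lines. MNT, the broadly expressed antagonist, had overlapping levels of 18.4, 20.0 and 18.8 FPKM in RD Scramble and 19.8, 20.5 and 15.7 FPKM in Rh30 Scramble, with a difference of -0.04 and a 95% confidence interval of -0.28 to 0.21 (limma adjusted p = 0.759).

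Within a line, the 9 genes spanned a wide range of levels. In RD Scramble the order of mean FPKM was MYC at 98.9, MAX at 46.6, MXD4 at 22.0, MNT at 19.1, MXI1 at 14.8, MGA at 13.4, MXD3 at 8.30, MXD1 at 8.01 and MYCN at 2.13. Neighbours in this order whose libraries overlapped, and which did not differ beyond their spread, were MXI1 with MGA and MXD3 with MXD1. In Rh30 Scramble the order was MYCN at 90.7, MAX at 56.4, MYC at 55.5, MXD3 at 47.1, MGA at 19.6, MNT at 18.7, MXD4 at 10.7, MXI1 at 10.6 and MXD1 at 4.68 FPKM. Here MAX overlapped MYC, MGA overlapped MNT and MXD4 overlapped MXI1, and the highest MXD3 library (53.0 FPKM) stayed just under the lowest MYC library (53.2 FPKM).

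**Figure D1:**
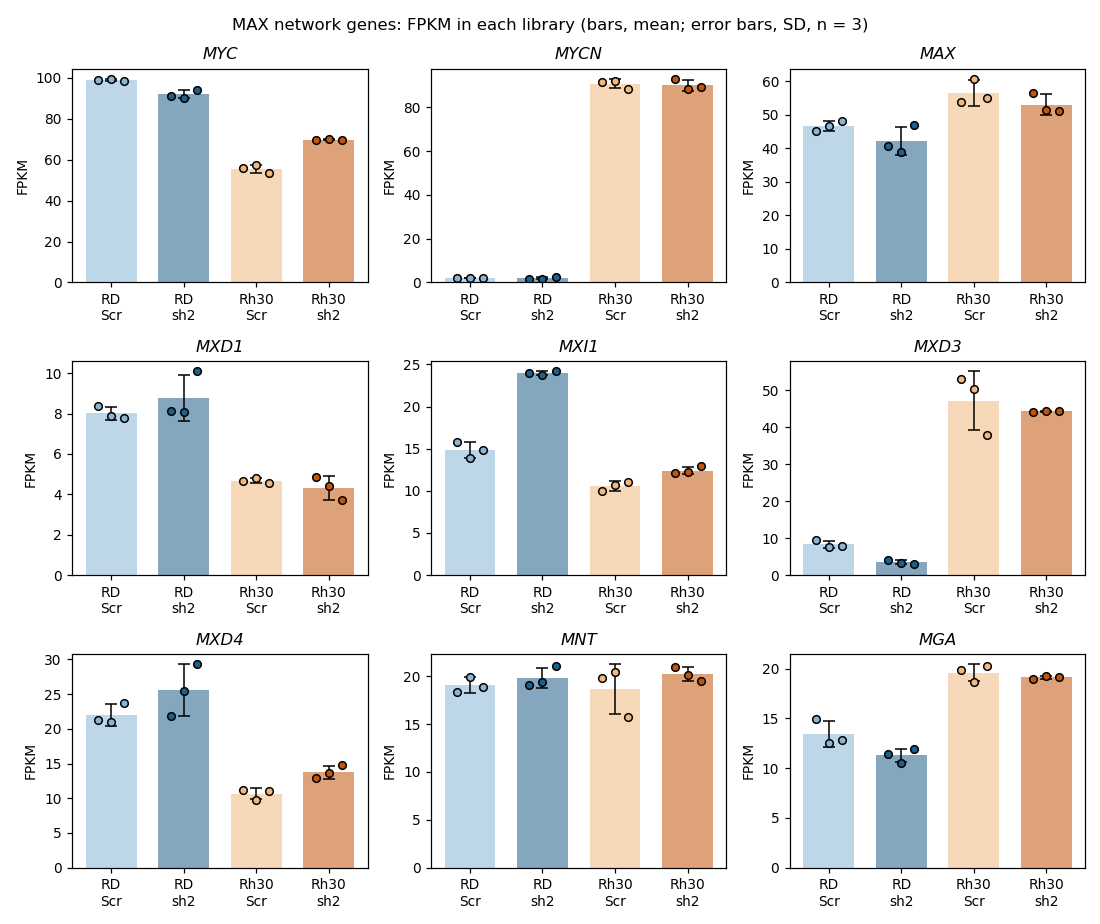
FPKM (y axis, from 0, with its own scale in each panel) of the 9 MAX network genes in the 4 groups, with 1 point per library, the mean as a bar and the SD as the error bar (n = 3). MYC was highest in RD, MYCN was near 2 FPKM in RD and near 90 FPKM in Rh30, MXI1 rose and MXD3 fell in RD KDM3A-sh2, and MYC rose in Rh30 KDM3A-sh2.

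Upon KDM3A knockdown in RD, 3 of the 9 genes passed the test, 1 higher and 2 lower, beside 41.1% of the 17988 genes tested (21.6% higher and 19.5% lower). MXI1 rose and MXD3 fell, and a decrease of MYC was small. Groups did not overlap for 4 of the 9 (MYC, MXI1, MXD3 and MGA), beside 53.4% of all genes tested. The baseline and the knockdown comparisons share the Scramble libraries, so their values are set side by side here and not counted as separate evidence.

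MXI1 was at 15.8, 13.9 and 14.9 FPKM in RD Scramble and at 23.9, 23.7 and 24.2 FPKM in RD KDM3A-sh2. The knockdown libraries were tightly grouped and all above the controls. Its mean rose by 61.3%, a log2 change of 0.66 ± 0.0598 (SE; limma adjusted p = 0.000258). It passed the threshold in all 16 alternative fits. MXI1 is one of the SIN3-recruiting antagonists of MYC.

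MXD3 was at 9.43, 7.72 and 7.75 FPKM in RD Scramble and at 4.04, 3.32 and 3.05 FPKM in RD KDM3A-sh2. All 3 knockdown libraries lay under all 3 controls. Its mean fell by 58.2%, a log2 change of -1.06 ± 0.120 (limma adjusted p = 0.000634), and the call was kept in all 15 alternative fits that held the gene. MXD3 shares its genomic span on chromosome 5 (177301461 to 177312757, GRCh38, minus strand) with RAB24 on the same strand and with PRELID1 on the opposite strand. RAB24 had a log2 change of 0.06 in RD (limma adjusted p = 0.63) and PRELID1 one of -0.30 (limma adjusted p = 0.00315). The libraries were made with a directional kit, but the strand setting of the counting was not given in the sources used here, so the share of reads that these genes take from each other is uncertain. Of the 16 proliferation genes listed below, 15 fell in the same RD libraries, and the part of that fall in the MXD3 value was not tested.

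MYC itself was at 98.8, 99.5 and 98.3 FPKM in RD Scramble and at 91.2, 90.2 and 94.0 FPKM in RD KDM3A-sh2. All knockdown libraries lay under all controls, by a few FPKM. The log2 change was -0.11 ± 0.0331 (limma adjusted p = 0.0404), and its 95% confidence interval ran from -0.18 to -0.03. The call was lost in 8 of 16 alternative fits, among them the rescaling of each library to the same sum of FPKM, where the log2 change was -0.07 (limma adjusted p = 0.167). It was also lost without any 1 of the 3 Scramble libraries or without KDM3A-sh2 library 1 or 2, with log2 changes between -0.11 and -0.09.

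The other 6 genes did not pass the test in RD. MYCN was at 1.77, 1.79 and 2.32 FPKM in RD KDM3A-sh2, against 2.07, 2.23 and 2.09 FPKM in RD Scramble, a log2 difference of -0.09 with a wide 95% confidence interval of -0.38 to 0.21. MAX was at 40.5, 38.9 and 46.9 FPKM against 45.0, 46.5 and 48.2 FPKM in RD Scramble (log2 difference -0.15, 95% confidence interval -0.32 to 0.03). KDM3A-sh2 library 3 lay above all controls for MYCN and among them for MAX, and without it MAX passed the test at a log2 change of -0.22 (limma adjusted p = 0.0201). MXD4 was at 21.9, 25.5 and 29.3 FPKM in RD KDM3A-sh2, spread more widely than the controls, with a log2 difference of 0.20 (limma adjusted p = 0.183). Without KDM3A-sh2 library 1 that of MXD4 was 0.30 (limma adjusted p = 0.0452). MGA did not overlap, at 11.5, 10.6 and 11.9 FPKM against 15.0, 12.5 and 12.8 FPKM, and its log2 difference of -0.23 missed the threshold (limma adjusted p = 0.0706). MXD1 (log2 difference 0.11, 95% confidence interval -0.12 to 0.34) and MNT (log2 difference 0.05, 95% confidence interval -0.09 to 0.20) overlapped between the groups.

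Upon KDM3A knockdown in Rh30, 3 of the 9 genes passed the test, all higher (MYC, MXD4 and MXI1), beside 28.5% of the 17803 genes tested (15.3% higher and 13.2% lower). The same 3 did not overlap between groups, beside 45.8% of all genes. MYCN, the leading MYC-type gene of this line, did not pass.

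MYC was at 55.9, 57.3 and 53.2 FPKM in Rh30 Scramble and at 69.6, 70.1 and 69.5 FPKM in Rh30 KDM3A-sh2. All knockdown libraries were well above all controls. Its mean was higher by 25.6%, a log2 change of 0.32 ± 0.0411 (limma adjusted p = 0.00222), which passed the threshold in all 16 alternative fits.

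MYCN was at 91.6, 92.1 and 88.3 FPKM in Rh30 Scramble and at 93.0, 88.3 and 89.1 FPKM in Rh30 KDM3A-sh2. The groups overlapped. The log2 difference was -0.01, and its 95% confidence interval of -0.10 to 0.08 did not reach the size of the MYC change (limma adjusted p = 0.891).

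MXD4 was at 11.2, 9.80 and 11.0 FPKM in Rh30 Scramble and at 12.9, 13.7 and 14.7 FPKM in Rh30 KDM3A-sh2, a log2 change of 0.34 ± 0.0781 (limma adjusted p = 0.0201). The groups did not overlap, and the call was kept in 11 of 16 alternative fits, being lost in both per-gene F tests, which do not share the spread over genes, and without Scramble library 2, KDM3A-sh2 library 2 or KDM3A-sh2 library 3 (log2 changes 0.28 to 0.34). MXI1 was at 9.93, 10.7 and 11.0 FPKM in Rh30 Scramble and at 12.1, 12.2 and 12.9 FPKM in Rh30 KDM3A-sh2, a log2 change of 0.22 ± 0.0648 (limma adjusted p = 0.0479). Its groups did not overlap, yet the call was kept in only 3 of 16 alternative fits and was lost when any 1 library was left out (log2 changes 0.18 to 0.24).

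MXD3 did not pass the test in Rh30, at 53.0, 50.4 and 38.0 FPKM in Scramble and 44.2, 44.4 and 44.3 FPKM in KDM3A-sh2. The knockdown libraries fell between the control libraries, of which the third was far under the others. Its log2 difference was -0.07, with a 95% confidence interval of -0.35 to 0.21, and 1 library decided it. Without Scramble library 3 MXD3 was lower by a log2 change of -0.22 (limma adjusted p = 0.0197), and without Scramble library 1 its log2 difference was 0.02. MNT was lowest in the same Scramble library, at 15.7 FPKM against 19.5 to 21.0 FPKM in Rh30 KDM3A-sh2. The log2 differences of MNT (0.12), MAX (-0.09), MXD1 (-0.10) and MGA (-0.03) had 95% confidence intervals that included 0.

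**Figure D2:**
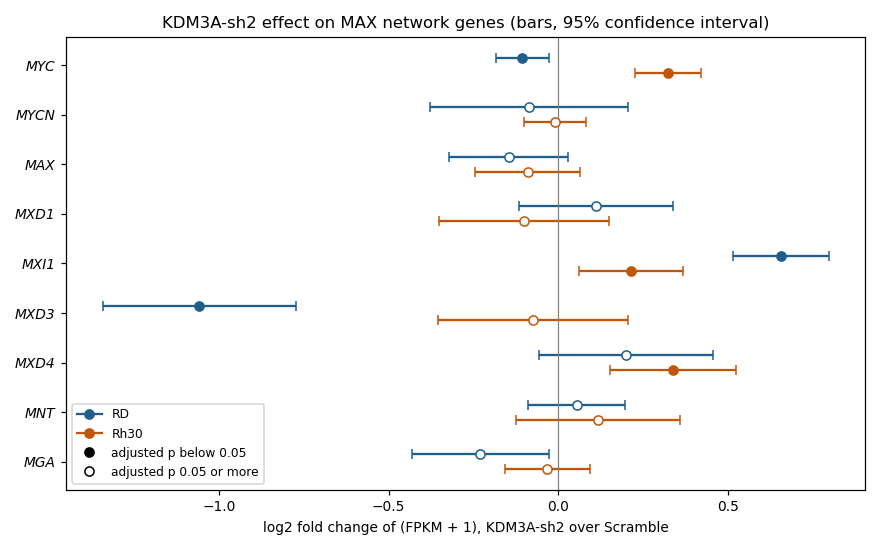
Log2 fold change of (FPKM + 1), KDM3A-sh2 over Scramble (x axis), of the 9 genes in RD (blue) and Rh30 (orange), with 95% confidence intervals as bars and filled points where the adjusted p was below 0.05. MYC was at -0.11 in RD and 0.32 in Rh30, MXI1 at 0.66 and 0.22, and MXD3 at -1.06 and -0.07.

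Whether the knockdown acted differently in the 2 lines was tested as an interaction, the log2 change in Rh30 minus that in RD, over all 12 libraries. It passed for 3 of the 9 genes, beside 27.8% of the 18517 genes tested (14.4% higher and 13.4% lower, or 2665 and 2486 genes, which became 2061 and 3015 with every library rescaled to the same sum of FPKM). MYC differed by 0.43 ± 0.0469 (SE; limma adjusted p = 7.89e-05), and this difference kept its call in all 22 alternative fits. The changes were in opposite directions in the 2 lines, but the small RD decrease on its own lost its call in 8 of 16, as given above. MXD3 differed by 0.98 ± 0.175 (limma adjusted p = 0.00191), with its decrease in RD, and lost the call only in the per-gene F test on unlogged FPKM (adjusted p = 0.788, not limma). MXI1 differed by -0.44 ± 0.0819 (limma adjusted p = 0.00243), with the larger increase in RD, and kept its call in all 22. For MYCN the difference was 0.08, with a 95% confidence interval of -0.13 to 0.29. MAX (0.06), MNT (0.06), MXD4 (0.14), MGA (0.20) and MXD1 (-0.21) did not pass either. KDM3A itself fell less in Rh30, by a difference of 0.37 ± 0.119 (limma adjusted p = 0.0388) that was called in 10 of 22 alternative fits, so the lines were not compared at an equal depth of knockdown.

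Since all partners compete for MAX, the summed FPKM of the groups of genes were also described, without a test. MYC plus MYCN summed to between 100.4 and 102 FPKM in RD Scramble, 92.0 and 96.3 FPKM in RD KDM3A-sh2, 142 and 149 FPKM in Rh30 Scramble and 158 and 163 FPKM in Rh30 KDM3A-sh2. MYCN made up 2.11% ± 0.0741 (SD, n = 3) of this sum in RD Scramble and 62.0% ± 0.397 in Rh30 Scramble. With the rise of MYC in Rh30 KDM3A-sh2 the MYCN share was 56.4% ± 0.755, and all 3 knockdown libraries lay under all 3 controls.

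The 4 MXD-type genes (MXD1, MXI1, MXD3 and MXD4) had a different make-up in each line. In RD Scramble MXD4 held the largest share at 41.4% ± 2.53, and in Rh30 Scramble MXD3 did at 64.2% ± 4.69. The MXD3 shares carry the uncertainty over reads of its overlapping genes given above. In RD the MXD3 share went from 15.6% ± 1.46 to 5.67% ± 1.21 upon knockdown and the MXI1 share from 27.9% ± 0.744 to 38.9% ± 2.51, both without overlap between the groups. In Rh30 the MXD3 share was 59.2% ± 0.595 and the MXI1 share 16.6% ± 0.406 after knockdown, against 64.2% ± 4.69 and 14.6% ± 2.27 before, and both overlapped.

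MYC plus MYCN over the sum of the 6 antagonists, MNT and MGA included, was 1.14 to 1.23 in RD Scramble and 0.967 to 1.05 in RD KDM3A-sh2, with no overlap. In Rh30 this ratio was 1.24 to 1.41 in Scramble and 1.39 to 1.43 in KDM3A-sh2, with overlap. MYC plus MYCN over MAX overlapped in RD (2.08 to 2.24 in Scramble, 2.05 to 2.37 in KDM3A-sh2) and did not in Rh30 (2.46 to 2.75 in Scramble, 2.88 to 3.11 in KDM3A-sh2). These are ratios of transcripts and say nothing of protein.

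**Figure D3:**
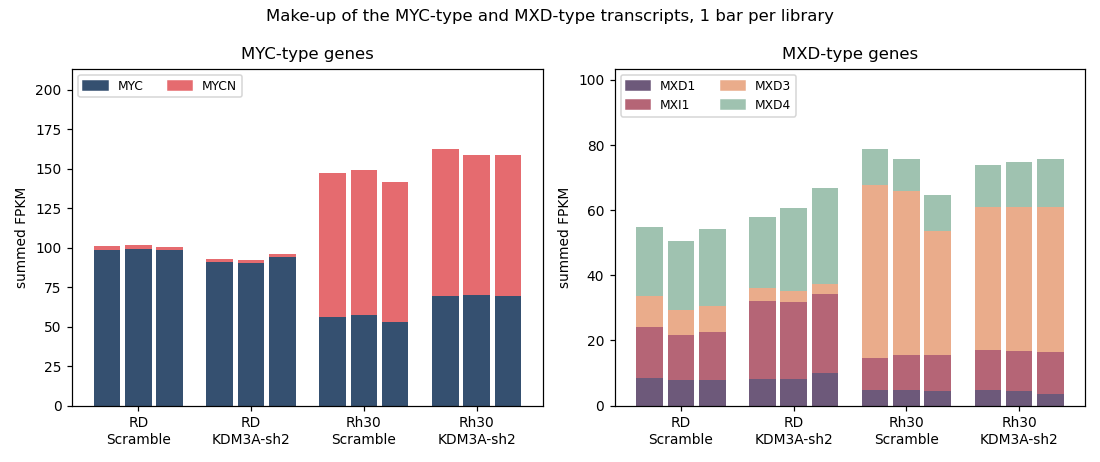
Summed FPKM (y axis, from 0) of the MYC-type genes (left) and of the MXD-type genes (right), with 1 stacked bar per library. MYCN made up about 2.11% of the MYC-type sum in RD Scramble and 62.0% in Rh30 Scramble, and MXD3 shrank in the RD KDM3A-sh2 libraries while MXI1 grew.

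The proteins that the network recruits were followed in lists set out from general knowledge. Of 15 MYC co-activators 9 passed the test in RD, all lower, beside 19.5% of all genes tested that were lower, and the list had a median log2 difference of -0.23 beside 0.01 over all genes tested. RUVBL2, an ATPase of the TIP60 and INO80 complexes, fell from 169 ± 12.1 to 116 ± 2.97 FPKM in RD (log2 change -0.53, limma adjusted p = 0.000428), and CCNT1, the cyclin of the elongation factor P-TEFb, by a log2 change of -0.27 (limma adjusted p = 0.0181). In Rh30, 2 co-activators were higher, KAT2A (log2 change 0.23) and EP400 (0.19), and 2 lower, among them RUVBL1 (-0.21). These counts stood beside 15.3% of all genes tested that were higher and 13.2% that were lower. The effect differed between the lines for 4 of the 15, RUVBL2, KAT2A, EP400 and WDR5, near the 27.8% of all genes tested. For these 4 the log2 change, not the level, was higher in Rh30 than in RD, beside 14.4% of all genes.

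Of 13 co-repressors that serve the MXD proteins and MNT, 4 were lower in RD, beside 19.5% of all genes tested, and 4 were lower and 1 higher in Rh30, beside 13.2% and 15.3%. The list medians were -0.08 in RD and -0.05 in Rh30, beside 0.01 and 0.03 over all genes. The 4 in RD were within 1.5 times under every alternative run, but those in Rh30 became 1 without KDM3A-sh2 library 1 or 3, with limma without the trend and with the replicate block, and 2 without Scramble library 2 or 3 or KDM3A-sh2 library 2. HDAC2, a histone deacetylase of the SIN3 complex, fell in both lines, from 360 ± 19.3 to 219 ± 4.40 FPKM in RD (log2 change -0.72, limma adjusted p = 5.95e-05) and from 543 ± 11.8 to 355 ± 9.80 FPKM in Rh30 (log2 change -0.61, limma adjusted p = 0.000125). SIN3A, the scaffold that MXD proteins bind, fell by a log2 change of -0.51 in RD and -0.15 in Rh30, and this difference between the lines passed the test (0.36, limma adjusted p = 0.00462). The others lower were RBBP4 and RBBP7 in RD and HDAC1 and RBBP4 in Rh30, and the gene higher in Rh30 was BRMS1. In RD these decreases stood beside the increase of MXI1, one of the proteins that recruit SIN3A.

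Of 10 partners of MGA in PRC1.6, 3 were higher and 1 lower in RD, and 2 higher and 1 lower in Rh30. This was near the share of all genes tested, of which 41.1% passed in RD and 28.5% in Rh30, and the list medians were -0.01 and 0.10. The 1 lower in Rh30 was lost when any 1 library was left out. RING1, a ubiquitin ligase subunit, was higher in both lines, at 23.3 ± 1.73 and 30.4 ± 0.885 FPKM in RD (log2 change 0.37) and 24.4 ± 1.24 and 33.8 ± 1.60 FPKM in Rh30 (log2 change 0.45). CBX3, a heterochromatin protein, fell by a log2 change of -0.33 in RD, and E2F6, which targets the complex to E2F sites, rose by 0.30 in Rh30. MGA itself did not pass the test in either line.

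Of 16 genes for proteins that set the stability of MYC protein, 4 fell and 2 rose in RD, and 3 fell and 1 rose in Rh30, with medians of -0.06 and 0.01. As a share of the list this was under the 41.1% and 28.5% of all genes that passed in these lines. AURKA, a mitotic kinase that shields MYCN from degradation, fell from 148 ± 1.38 to 74.8 ± 1.36 FPKM in RD (log2 change -0.98, limma adjusted p = 1.24e-05), and by a log2 change of -0.16 in Rh30 (limma adjusted p = 0.016), and the lines differed by 0.82 (limma adjusted p = 6.34e-07). The RD decreases also included PLK1 (log2 change -0.84) and CIP2A (-0.74). BTRC, a ubiquitin ligase subunit, rose in RD by a log2 change of 0.54. SET, an inhibitor of the phosphatase PP2A, rose in both lines, by 0.30 in RD and 0.33 in Rh30. In Rh30 SKP2, CIP2A and AURKA were the 3 lower genes, which became 1 without KDM3A-sh2 library 1. AURKA and PLK1 are also mitotic genes, and the proliferation genes below moved with them.

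More MYC targets passed the test in RD than in Rh30, as did more of all genes tested (41.1% in RD and 28.5% in Rh30). Most of the targets that passed in RD were lower. Of 30 ribosome biogenesis targets, 24 passed in RD, all lower, beside 19.5% of all genes tested that were lower. The list had log2 differences from -0.61 to -0.01 in RD and a median of -0.29 beside 0.01 over all genes tested. In Rh30, 3 were lower and 1 higher, beside 13.2% and 15.3% of all genes tested, with a median of -0.01 beside 0.03. The difference between the lines passed for 21 of the 30 (16 after rescaling to the same sum), all with a lower log2 change in RD than in Rh30. This stood beside 14.4% of all genes tested that differed in that direction. The median of the difference was 0.28 beside 0.02 over all genes. FBL, the methyltransferase of ribosomal RNA whose E-box is shown above, was at 478 ± 10.1 FPKM in RD Scramble and 314 ± 7.86 FPKM in RD KDM3A-sh2 (log2 change -0.61, limma adjusted p = 3.64e-05), and at 1301 ± 24.6 and 1287 ± 48.5 FPKM in Rh30, where the groups overlapped. NOP58, its partner in the same particle, fell in RD by a log2 change of -0.45 (limma adjusted p = 0.00027). The CACGTG E-box was in 10 of the 23 promoters of this list that the table held, beside 7.4% of all promoters.

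Of the targets in metabolism and growth, 12 of 29 tested were lower and 2 higher in RD (9 and 2 after rescaling to the same sum), with a median log2 change of -0.10. Among all genes tested in RD, 19.5% were lower and 21.6% higher. For Rh30 the counts were 5 of 28 lower and 4 higher (8 and 3 after rescaling to the same sum), with a median of -0.04. These were near the shares of all genes tested in Rh30, 13.2% lower and 15.3% higher. PTMA, the acidic nuclear protein prothymosin alpha, fell from 1115 ± 17.5 to 586 ± 15.6 FPKM in RD (log2 change -0.93, limma adjusted p = 1.24e-05), and in Rh30 by -0.13 (limma adjusted p = 0.0406). TFAP4, a helix-loop-helix factor, fell in RD from 37.2 ± 4.56 to 22.0 ± 2.04 FPKM, a log2 change of -0.73. SHMT2 and CCND2, an enzyme of serine metabolism and a D-type cyclin, went the other way in RD, by 0.32 and 0.29. In Rh30 IMPDH2 (log2 change 0.27) and HSPE1 (0.20) were higher, and TFRC (-0.48) and CCND2 (-0.30) lower. An E-box was in 9 of 25 promoters of this list, beside 7.4% of all promoters. The promoters of HSPD1 and HSPE1, on opposite strands, hold the same site, which was counted for each.

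Of 5 genes that MYC is known to repress, the 3 that passed the test in RD rose, beside 21.6% of all genes tested that were higher in RD, and the 2 that passed in Rh30 fell, beside 13.2% that were lower. CDKN2B, a CDK4/6 inhibitor, went from 25.9 ± 1.96 to 49.7 ± 1.25 FPKM in RD (log2 change 0.92, limma adjusted p = 8.45e-05). GADD45A, a growth arrest gene, rose in RD by 0.49 (limma adjusted p = 0.000188). CDKN1A, the CDK inhibitor p21, rose in RD by 0.26 (limma adjusted p = 0.00239) and fell in Rh30 from 99.5 ± 4.04 to 67.6 ± 1.30 FPKM, a log2 change of -0.55 (limma adjusted p = 0.000346). NDRG2 was the other gene lower in Rh30 (log2 change -0.43, limma adjusted p = 0.0364). The effect differed between the lines for CDKN2B (-1.27), CDKN1A (-0.81) and GADD45A (-0.44).

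Proliferation genes moved with the RD values above. Of 16 such genes, 15 passed the test in RD, all lower, beside 19.5% of all genes tested that were lower. Their median log2 difference was -0.94 beside 0.01 over all genes. The summed level of the 16 was 2471 to 2535 FPKM in RD Scramble and 1363 to 1403 FPKM in RD KDM3A-sh2. In Rh30, 3 were lower (6 after rescaling to the same sum of FPKM) and 1 higher, beside 13.2% and 15.3% of all genes tested. The median there was -0.08, with sums of 3878 to 4089 FPKM in Scramble and 3720 to 3845 FPKM in KDM3A-sh2. RRM2, a subunit of ribonucleotide reductase, fell in RD by a log2 change of -1.48, and TYMS, thymidylate synthase, by -1.21. Their part in the MYC target values was not tested. An E2F word was in 7 of the 13 promoters of this list, beside 2.8% of all promoters and the 1 network gene, MYCN, whose match is printed above.

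**Figure D4:**
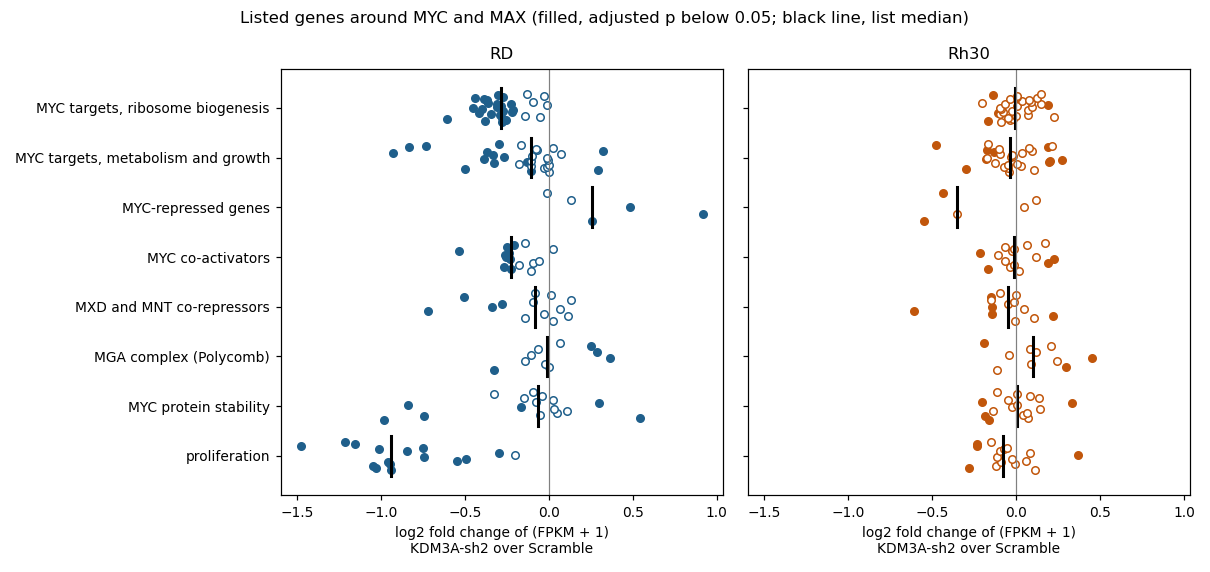
Log2 fold change of (FPKM + 1), KDM3A-sh2 over Scramble (x axis), of single genes in lists around MYC and MAX in RD (left) and Rh30 (right), with filled points where the adjusted p was below 0.05 and a black line at the list median. In RD the medians of ribosome biogenesis targets (-0.29) and proliferation genes (-0.94) lay under 0 and that of the MYC-repressed genes (0.26) above it, and in Rh30 those of the first 2 lists lay within 0.1 of 0.

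The sister gene MYCL and the related MLX branch were followed as well. MYCL was at 14.5 ± 0.816 and 14.2 ± 0.303 FPKM in RD Scramble and RD KDM3A-sh2, and went from 15.2 ± 0.755 to 24.8 ± 0.191 FPKM in Rh30 (log2 change 0.67, limma adjusted p = 0.000395). In Rh30 all 3 knockdown libraries, at 24.6 FPKM or more, lay above all 3 controls, at 15.7 FPKM or less. MYC and MYCL both rose in Rh30, and MYCN did not pass the test. TXNIP, a glucose-responsive target of the MLX branch, rose in Rh30 from 68.8 ± 3.58 to 87.5 ± 2.55 FPKM (log2 change 0.34, limma adjusted p = 0.00357). In RD the 5 genes tested had log2 differences between -0.11 and 0.28, and the one nearest to the threshold, ARRDC4, had a limma p of 0.0518 before adjustment.

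Of 8 genes that neighbour MYC and MYCN in the genome, 1 of 5 tested fell in RD and 2 of 6 fell in Rh30, and none rose, beside 19.5% and 13.2% of all genes that were lower. Of the genes beside MYC on chromosome 8, the long noncoding RNA PVT1 fell in RD from 33.3 ± 3.85 to 21.7 ± 3.90 FPKM (log2 change -0.61, limma adjusted p = 0.0114), a call that was lost in both per-gene F tests. FAM84B fell in Rh30 from 5.52 ± 0.156 to 3.40 ± 0.525 FPKM (log2 change -0.57, limma adjusted p = 0.0099), where MYC rose. MYCN lies on chromosome 2 (15940564 to 15947007, GRCh38, plus strand) and overlaps its antisense RNA MYCNOS, which was at 4.12 ± 1.16 FPKM in Rh30 Scramble and 4.63 ± 0.0943 FPKM in Rh30 KDM3A-sh2, without passing the test. FAM49A, farther along the same chromosome, was at 43.6 ± 2.60 FPKM in Rh30 Scramble and 1.39 ± 0.0766 FPKM in RD Scramble, and fell to 20.6 ± 1.32 FPKM in Rh30 KDM3A-sh2 (log2 change -1.04, limma adjusted p = 0.000195), with a difference of -0.01 for MYCN. In RD it was at 0.825 FPKM after knockdown, a log2 difference of -0.41 that did not pass the test (limma adjusted p = 0.122). DDX1 and NBAS, the other protein-coding neighbours of MYCN in the list, did not pass in either line.

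Genes whose pattern over the 12 libraries was most like that of MYC or MYCN were found among the 11017 genes that averaged 10 FPKM or more, by the root mean square distance of log2(FPKM + 1) centred on each gene's own mean. For MYC they were ZNF43 (distance 0.0658), HSPE1P2 (0.0683) and HSPE1 (0.0736). HSPE1, a mitochondrial chaperone, had mean levels of 593, 544, 348 and 400.5 FPKM in RD Scramble, RD KDM3A-sh2, Rh30 Scramble and Rh30 KDM3A-sh2. HSPE1P2 is a pseudogene with sequence in common with HSPE1, so the reads of the 2 may have been split between them. For MYCN the closest were OPRD1 (0.112), BMP5 (0.133) and HHIP-AS1 (0.160), which all had means under 1 FPKM in RD and over 30 FPKM in Rh30. These distances rest on 4 groups and carry no test.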

How the data were processed

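Polyadenylated RNA of 12 libraries (RD and Rh30, Scramble and KDM3A-sh2, 3 each) was sequenced after a directional library preparation. The deposited table held FPKM values per gene, which the authors made with GSNAP, SAMtools and Cufflinks on GRCh38, as named in the submitters' processing notes and methods. FPKM are not counts, so absolute depth is unknown and relative depth was read from the smallest steps of low values. Of 66095 entries, 120 repeats of an identifier were left out, keeping the entry with the higher mean, and 17 genes with a placeholder value were left out of the fits that used it. The number of columns of values not used was 0.

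Values were analysed as log2(FPKM + 1) for genes that averaged 1 FPKM or more in the fit, with limma 3.58.1 (moderated test with a mean-variance trend, two-sided) in R 4.3.3 and Benjamini-Hochberg adjustment over all genes tested. The knockdown was tested within each line, the difference between lines as an interaction, and Rh30 against RD over the Scramble libraries. The study's own test was an ANOVA on FPKM, a per-gene F test, which was tried as an alternative with unlogged and logged values, beside another pseudocount (0.1), other filters (none, or 10 FPKM in 1 library), other scalings, limma without the trend, a replicate block, summed repeats and each library left out. The procedure was tested on simulated data. Named genes were the 9 members, KDM3A and, per list, line and direction, the 2 called genes with the largest change and a mean of at least 10 FPKM. Where 5 or fewer genes of a list passed, others of them were named after their values were seen, and some list members are counted but not reported here by name. The members and lists were chosen with earlier results of these data known. Positions are from GENCODE 29, and promoter sequences from RefSeq (GRCh38.p14). A protein sequence table was not used here.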

Additional observations from a re-analysis of the deposited data

Results flagged for a closer look

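The results named here were picked out because the KDM3A-sh2 effect differed between Rh30 and RD by the interaction test (limma, adjusted p below 0.05). They were drawn only from the network genes and the genes named for the largest called changes within a line, a choice that favours such differences. Over all 18517 genes tested 27.8% passed. Other listed genes also passed, such as WDR5 and others of the 21 ribosome biogenesis targets, so these are not full lists. Each value is the log2 change in Rh30 minus that in RD. Of the network genes, MYC differed by 0.43, MXD3 by 0.98 and MXI1 by -0.44. Among relatives, co-activators, co-repressors and MGA partners they were MYCL (0.70), TXNIP (0.37), RUVBL2 (0.51), KAT2A (0.46), EP400 (0.28), SIN3A (0.36), CBX3 (0.21), E2F6 (0.30) and YAF2 (-0.26). Among regulators of MYC protein stability they were BTRC (-0.47), AURKA (0.82), PLK1 (0.84) and CIP2A (0.55). Among MYC targets they were FBL (0.59), NOP58 (0.35), PES1 (0.20), DDX18 (0.21), SHMT2 (-0.50), CCND2 (-0.59), PTMA (0.79), TFAP4 (0.94), IMPDH2 (0.38), HSPE1 (0.33) and TFRC (-0.31), and among the genes MYC represses CDKN2B (-1.27), GADD45A (-0.44) and CDKN1A (-0.81). FAM49A, a neighbour of MYCN, differed by -0.63. It was low in RD, as given above, where the added 1 makes its change look smaller than it is. All 16 proliferation genes passed, and those named by the rule were RRM2 (1.25), TYMS (1.06), MCM5 (0.57), BUB1 (0.75) and TOP2A (0.92). The muscle lineage genes were CHRNA1 (-1.06), DES (-0.35), CDH15 (0.35), MYOD1 (0.52) and MYOG (0.70). The lines also differed in the fall of KDM3A itself, as given above. No group held enough libraries for a search for single outlying libraries.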

How the results depend on the processing

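Of the values of the 9 network genes and KDM3A, 268 without 1 library and 376 under other alternatives kept their direction and their side of the threshold, against 32 and 20 that did not. With 3 libraries a group, leaving out 1 moved several calls. The count of network genes in RD ranged from 1 to 2 higher and from 1 to 3 lower without 1 library, and in Rh30 from 1 to 2 higher (3 in all libraries) and from 0 to 1 lower. The count of all genes higher in Rh30, 2719, ranged from 1621 to 2127 without 1 library, lowest without KDM3A-sh2 library 1 and at 1759 without KDM3A-sh2 library 2. The network genes lower in RD were 1 in place of 2 with at least 10 FPKM in 1 library, which leaves out MXD3, with the same sum of FPKM and with limma without the trend, where MYC lost its call. The network genes higher in Rh30 were 1 with either ANOVA. Those whose change was called higher in Rh30 than in RD were 1 with an ANOVA on unlogged FPKM. Differences that turned their sign, with the turned value short of the threshold, were those of MYCN in Rh30 (-0.031 to 0.0062 without 1 library, positive without Scramble or KDM3A-sh2 library 2), MXD3 in Rh30 (-0.22 without Scramble library 3, where it passed, to 0.016 without Scramble library 1), MAX between effects (-0.0020 with the same sum), MNT between effects (-0.052 to 0.13 without 1 library, negative without Rh30 Scramble library 3) and MNT between lines (0.039 with the same upper quartile, and -0.11 to 0.077 without 1 library, positive without that library). The labels do not say whether same-numbered libraries were paired. Deviations from the group means of same-numbered libraries had r between -0.0744 and 0.0713 in 12 pairs. No shared replicate effect was seen, which cannot tell how the libraries were grown or prepared. With the replicate block, 1 network gene was lower in RD and 2 were higher in Rh30, and 1798 genes were higher in Rh30. The causes were not tested. Depth is known only in relative terms, so no counting error could be given.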

Other observations

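Muscle lineage genes, which place both lines in RMS, did not as a list follow MYC in a single direction. Of the 5, 2 were higher and 3 lower in RD, beside 21.6% and 19.5% of all genes tested. In Rh30 2 were higher and 2 lower, beside 15.3% and 13.2%. MYOD1 changed in the direction of MYC in RD (-0.24, limma adjusted p = 0.00383) and in Rh30 (0.28, limma adjusted p = 0.0222), and so did MYOG. CHRNA1 changed the other way in both lines, as did CDH15 in Rh30 and DES in RD. In RD KDM3A-sh2 the receptor subunit CHRNA1 rose from 1074 to 1436 FPKM (log2 change 0.42, limma adjusted p = 0.000127) and the cadherin CDH15 fell from 72.4 to 47.3 FPKM (log2 change -0.60, limma adjusted p = 0.000268). In Rh30 KDM3A-sh2 the muscle factor MYOG rose from 691 to 1017 FPKM (log2 change 0.56, limma adjusted p = 0.0004) and CHRNA1 fell from 456 to 292 FPKM (log2 change -0.64, limma adjusted p = 8.55e-05). Among the PAX3-FOXO1 targets in Rh30, a group to which MYCN is often counted, 3 of 6 rose and 1 fell, beside 15.3% and 13.2% of all genes tested, with a median of 0.22 beside 0.03. PIPOX rose (log2 change 0.39) and FGFR4 fell (-0.24), while MYCN stood at a difference of -0.01.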
